A study of Mus musculus with 12 samples.

Results

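First intron peaks are regions of open chromatin that lie in the first intron of a gene, that is, between the first and the second exon of a transcript. The members are all peaks whose deposited annotation places them in intron 1 of a transcript. They number 17317 of 139999 peaks (12.4%) and make up 33.7% of all 51371 intron peaks. The same 17317 peaks stand in each of the 3 deposited tables, 1 table per phase of the culture.

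The peaks were mapped by ATAC-seq, in which the transposase Tn5 cuts accessible DNA, in bone marrow derived macrophages of male C57BL/6J mice. First-phase libraries came from diabetic and from healthy cells (2 libraries each), and rest-phase and second-phase libraries from diabetic-trained and from untrained cells (2 each in either phase). Mice were 8 weeks old when allocated, and those of the diabetic arm received streptozotocin, which kills pancreatic beta cells, at 42 to 45 mg/kg per day for 5 days. Animals above 16.9 mmol/L non-fasted glucose counted as diabetic, and marrow was taken after 6 weeks of hyperglycaemia. All rest-phase cells, of either arm, had 7 days in medium with 5 mmol/L glucose and M-CSF, the growth factor that drives marrow progenitors into macrophages. Second-phase cells, again of both arms, then received IFN-γ at 10 ng/mL with LPS at 100 ng/mL for 16 hours, the classical stimulus of inflammatory macrophages. When the first-phase cells were harvested is not in the labels, and neither is the number of animals behind a group, so p-values speak of the spread of libraries alone, which may be technical. The tables name their mean columns by no label, and the groups are therefore called A and B within each phase. The letter does not carry over from phase to phase.

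First introns tend to be the longest introns of a gene and lie next to the promoter. They are known to hold many enhancers, short elements bound by transcription factors that raise transcription of the host gene or of a neighbour. In macrophages, lineage factors such as PU.1, C/EBP and RUNX hold open a basal set of enhancers, on which signal-dependent factors such as AP-1, NF-kB and the interferon regulatory factors act after stimulation. An open first intron peak can also be the start of a shorter transcript of the same gene.

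A few members cover such an inner start, and these are the ones whose sequence can be read from the RefSeq table of start windows (build GRCm38.p6, the patch series of mm10), which runs from 250 bases before to 50 bases after each start. Of all members, 84 (0.485%) overlapped 1 of the 32851 windows, and for 10 of these the window belonged to the host or assigned gene itself (Lims1, Ikzf1, Cyth1, Cnot8, Pacsin2, Steap3, Sec31a, Smim14, Stmp1 and Trim30a). The 5 windows below are shown because the peak over them was called between phases (Smim14, Steap3) or between groups A and B of the rest phase (Ikzf1, Pacsin2, Smim14), or because its level differed within the second phase (Trim30a). Sequences run 5′ to 3′ on the strand of the gene, and capitals mark letters that match a searched motif.
Smim14, chr5:65484012-65484311, minus strand: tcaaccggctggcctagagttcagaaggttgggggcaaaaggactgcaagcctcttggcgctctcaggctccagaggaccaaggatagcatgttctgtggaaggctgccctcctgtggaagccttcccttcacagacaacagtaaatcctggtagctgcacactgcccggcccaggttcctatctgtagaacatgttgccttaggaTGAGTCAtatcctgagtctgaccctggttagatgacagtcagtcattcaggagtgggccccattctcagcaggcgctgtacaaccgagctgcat
Steap3, chr1:120258829-120259128, minus strand: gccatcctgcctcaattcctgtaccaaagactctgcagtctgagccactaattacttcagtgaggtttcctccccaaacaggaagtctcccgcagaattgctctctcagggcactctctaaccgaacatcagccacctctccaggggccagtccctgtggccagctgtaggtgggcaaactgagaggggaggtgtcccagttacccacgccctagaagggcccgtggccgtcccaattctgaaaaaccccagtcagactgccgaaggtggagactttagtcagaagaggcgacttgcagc
Ikzf1, chr11:11689927-11690226, plus strand: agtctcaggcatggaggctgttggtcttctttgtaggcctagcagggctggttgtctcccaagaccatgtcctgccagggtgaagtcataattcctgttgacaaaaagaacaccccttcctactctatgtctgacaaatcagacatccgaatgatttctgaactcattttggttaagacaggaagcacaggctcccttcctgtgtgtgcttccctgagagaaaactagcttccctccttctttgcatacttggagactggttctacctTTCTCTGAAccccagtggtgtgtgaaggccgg
Pacsin2, chr15:83447831-83448130, minus strand: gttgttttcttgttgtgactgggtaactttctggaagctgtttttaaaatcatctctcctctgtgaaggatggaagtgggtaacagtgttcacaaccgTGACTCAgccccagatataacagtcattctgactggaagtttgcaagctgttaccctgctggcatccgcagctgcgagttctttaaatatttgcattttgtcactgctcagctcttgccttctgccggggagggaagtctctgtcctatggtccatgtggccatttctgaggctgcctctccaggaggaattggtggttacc
Trim30a, chr7:104446076-104446375, minus strand: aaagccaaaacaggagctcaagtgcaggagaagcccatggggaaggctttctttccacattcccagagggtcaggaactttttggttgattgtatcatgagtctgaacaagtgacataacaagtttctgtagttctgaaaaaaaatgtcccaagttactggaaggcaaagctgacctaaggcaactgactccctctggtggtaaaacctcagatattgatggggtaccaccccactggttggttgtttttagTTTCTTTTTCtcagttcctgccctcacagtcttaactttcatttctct

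Motifs were searched on both strands of the 300 bases. The AP-1 motif (TGA, any 1 base, TCA) matched in Smim14, and also in Pacsin2 and Stmp1, against 7.81% of all windows. The interferon-stimulated response element (GAAA, any 2 bases, GAAA) matched in Trim30a, against 3.44% of all windows. The STAT motif GAS (TTC, any 3 bases, GAA) matched in Ikzf1 and Cyth1, against 8.30% of all windows, and the PU.1-type ETS motif (GAGGAAG) in Lims1, against 13.6%. No match was found in the 10 windows for NF-kB (GGGA, any 2 bases, TTCC, 1.47% of all windows), C/EBP (TTGC, any 2 bases, AA, 10.8%), the E-box CACGTG (7.15%), RUNX (TGTGGTT, 5.27%) or CTCF (CCAC, any 1 base, AGG, any 1 base, GGC, 0.326%). A match is a run of letters and was not tested as a site.

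Levels below are log2 of reads scaled to a common distribution over the 12 libraries (quantile scaling, 1 read added). The limma folds come from reads scaled over the libraries of each comparison alone, and can differ from differences of these levels. At the inner start of Smim14, a small membrane protein, levels were 6.84, 7.09, 7.13 and 7.38 in first-phase libraries A1, A2, B1 and B2, and 8.27, 8.28, 7.63 and 7.56 in the rest-phase libraries in the same order. All 4 rest-phase libraries lay above the first-phase ones, and the peak rose between the phases (log2 fold 0.81, SE 0.23, limma adjusted p = 0.0137). The window of Steap3, a ferrireductase of iron uptake, had 5.70, 6.42, 5.78 and 4.64 in the first and 4.74, 4.49, 4.04 and 4.30 in the rest phase, which overlap through first-phase library B2. It fell by 1.11 on the log2 scale (SE 0.38, limma adjusted p = 0.0294). Ikzf1 encodes Ikaros, a zinc finger factor of blood cell differentiation. Its peak had 7.79 and 8.31 in rest-phase group A against 7.12 and 7.14 in group B (log2 fold 0.81, SE 0.16, limma adjusted p = 0.0150). In second-phase libraries A1, A2, B1 and B2 it had 7.84, 6.22, 7.81 and 6.03, so that A2 and B2 lay low in either group. At Pacsin2, which encodes a membrane-bending protein of endocytosis, rest-phase group A stood at 6.67 and 6.36 against 5.34 and 5.53 for B (log2 fold 1.10, SE 0.23, limma adjusted p = 0.0176), and at Smim14 the groups differed by 0.57 (SE 0.12, limma adjusted p = 0.0165). Each of these calls between A and B rests on 2 libraries per group. A fit without 1 rest-phase library keeps 1 in its group, and cannot decide whether they hold. The Trim30a peak, at a gene of the interferon-induced TRIM family, stood at 8.71 and 8.76 in second-phase libraries A2 and B2, but at 7.27 in A1 and 7.37 in B1, within the 7.21 to 7.86 of all 8 earlier libraries. The difference of the phases was not called there (second over rest 0.29, SE 0.28, limma adjusted p = 0.678).

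The 12 libraries held 3827344 (B1, second phase) to 18602644 (A1, rest phase) reads in peaks, and the median first intron peak held 9 to 18 reads in the first phase, 17 to 54 in the rest phase and 17 to 50.5 in the second. In the first phase, libraries A1 and A2 were close to sampling noise of each other (variance ratio 1.13, against 2.07 to 15.7 in the other 5 pairs), and they entered comparisons between phases as 1 sample, giving n = 3. The second-phase libraries stood apart within their own groups. Over 17272 first intron peaks, library A2 correlated with B2 at r = 0.92, above its r of 0.78 with A1, and B1 correlated with B2 at only 0.68. Library A1 of the second phase correlated with rest-phase libraries A1 and A2 at 0.97 and 0.95. Peaks are not independent replicates, and these r values describe the libraries only. Results of the second phase are therefore given for each library.

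The label macrophage was checked on core promoter peaks, those within 1 kb of a start. Of 32 macrophage marker genes, 30 had such a peak, among them Csf1r, Adgre1, Cd68 and Mertk (Ccr2 and Timd4 had none), with summed scaled reads of 6396 to 7815 per first-phase library, 9379 to 10470 per rest-phase library and 8370 to 9988 per second-phase library. Neutrophil markers (17 of 19 genes with a core promoter peak, Lcn2 and Prtn3 without) summed to 3149 to 5680 in the first phase, 623 to 847 in the rest phase and 683 to 966 in the second. Erythroid and megakaryocyte markers (16 of 20, with Alas2, Hba-a1 and Hbb-bs among those without) summed to 4487 to 5540, 1994 to 2165 and 1506 to 2018 in the same order, T and NK cell markers (16 of 22) to 1836 to 2063, 1158 to 1380 and 763 to 1230, and B cell markers (17 of 19) to 1883 to 4820, 1166 to 1446 and 1141 to 1809. Core promoter peaks as a class also leaned down, with 32.2% called lower and 12.4% called higher in the rest than in the first phase by limma. The sums were not set against that lean. The part of these other cell types in the differences between first and rest phase was not tested. In bulk libraries, fewer cells of a type and less open chromatin per cell cannot be told apart.

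The members were nearly uniform in size. Of the 17317 peaks, 17287 were 400 bp wide and the widest was 798 bp. None lay nearer than 3001 bp to the start of its assigned gene, since the deposited annotation names nearer peaks promoters. The median distance was 13336 bp (quartiles 6971 and 28423 bp), with 11457 members downstream of that start and 5860 upstream. The host transcript had a median of 7 introns, and for 1934 peaks (11.2%) intron 1 was its only intron. In 13355 peaks (77.1%) the host gene was also the assigned, nearest gene. A further 1686 peaks lay in the intron of one gene and were assigned to another, and 2276 lay in a transcript without a gene ID. The peaks spread over 5269 hosts, of which 2153 held a single first intron peak and 294 held at least 10.

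One transcript held many members. The transcript ENSMUST00000127664.1 of Galnt2, a glycosyltransferase that starts O-glycans, held 448 members (2.59%) that span 4.33 Mb of chromosome 8, from 119962895 to 124291695. RefSeq places Galnt2 at 124231394 to 124345722, a length of 114 kb. Of the 448 peaks, 422 were assigned to other genes, among them Gse1 (57 peaks), Ankrd11 (41), Irf8 (32) and Zfp469 (29). The next largest host held 49 peaks. Peaks of this transcript are named below as lying in the long Galnt2 transcript, and counts that rest on them are given without them too.

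Among genes that host their own peaks, Cadm1 and Maml3 held the most, with 41 first intron peaks each. Cadm1 encodes an adhesion molecule of the immunoglobulin family and Maml3 a coactivator of Notch. They were followed by Asap1, an Arf GTPase-activating protein, and Ext1, a heparan sulfate polymerase, with 36 each, the forkhead factor Foxp1 with 35, the long noncoding RNA gene Morrbid with 31, and Dock4 and Slc8a1 with 30 each. The 30 peaks of Slc8a1, a sodium-calcium exchanger, spread over 244 kb, and the 41 of Cadm1 over 238 kb.

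The share of all reads in peaks that fell in first intron peaks was 6.41%, 6.20%, 6.04% and 7.82% in first-phase libraries A1, A2, B1 and B2, 10.7%, 10.2%, 8.98% and 8.90% in the rest-phase ones, and 10.9%, 9.85%, 11.2% and 10.2% in those of the second phase. All rest-phase libraries lay above all first-phase libraries. The means were 9.69% ± 0.885 (SD, n = 4) in the rest phase and 6.72% ± 0.959 (SD, n = 3) in the first. A two-sided exact permutation test gave p = 0.0571 (adjusted p = 0.229 over 4 tests), the smallest p it can give for 4 samples against 3. The second phase (10.5% ± 0.624, SD, n = 4) overlapped the rest phase (exact permutation p = 0.200, adjusted p = 0.400). The share of core promoter peaks ran the other way, from 48.8 to 59.1% in the first phase to 33.4 to 41.9% in the rest phase. Of the reads outside core promoters, first intron peaks held 15.5% ± 0.385 (SD, n = 4) in the rest phase and 15.0% ± 0.293 (SD, n = 3) in the first, which overlapped (exact permutation p = 0.114).

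**Figure D1:**
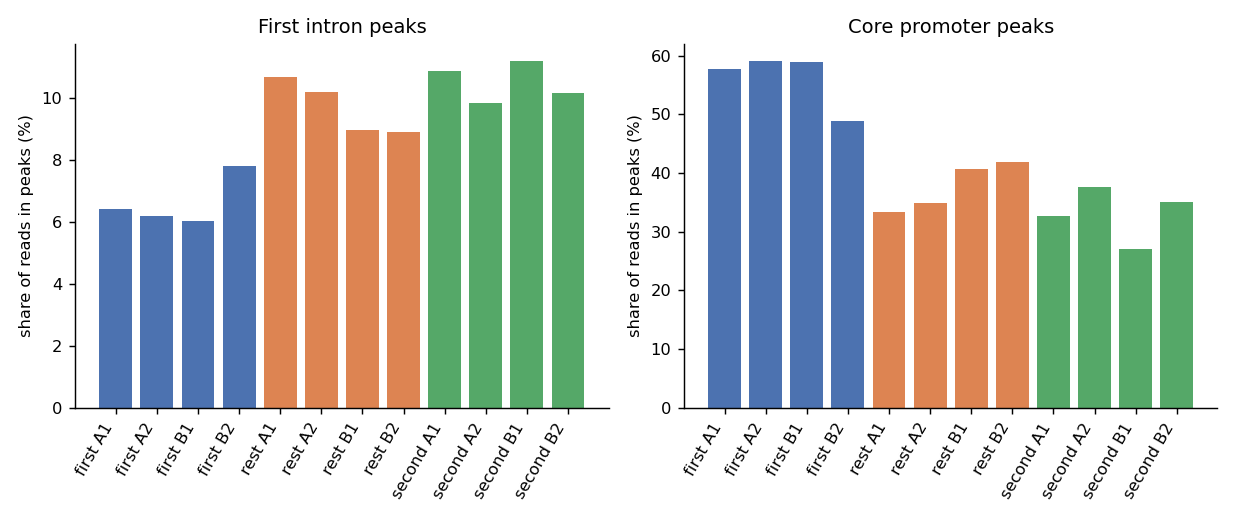
Share of the reads in peaks (%) that fell in first intron peaks (left) and in core promoter peaks (right), 1 bar per library, coloured by phase. First intron peaks held 6.04 to 7.82% in the first and 8.90 to 10.7% in the rest phase, while core promoter peaks held 48.8 to 59.1% and 33.4 to 41.9%.

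First intron peaks were next compared with peaks of later introns. The median level of first intron peaks minus that of later intron peaks was 0.16 ± 0.028 (SD, n = 4) in the rest phase and 0.18 ± 0.039 (SD, n = 3) in the first phase on the log2 scale (exact permutation p = 0.629, adjusted p = 0.629). In the second phase it was 0.10 ± 0.095 (SD, n = 4), with p = 0.314 against the rest phase by the same exact test (adjusted p = 0.419). Core promoter peaks gave another picture. Minus the median of core promoter peaks it was -1.96 to -1.84 in the first-phase libraries, -1.60 to -1.30 in the rest phase and -1.29 to -1.12 in the second phase, with no overlap between neighbouring phases. The exact permutation p, not adjusted, was 0.0571 for rest against first and 0.0286 for second against rest, each the smallest possible for its sample sizes. Against distal intergenic peaks the difference was 0.096 ± 0.083 in the rest phase and 0.15 ± 0.053 in the first (exact permutation p = 0.400).

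Between the first and the rest phase, first intron peaks changed in both directions. limma (empirical Bayes with trend, Benjamini-Hochberg adjusted over all 139557 peaks tested) called 6841 of the 17272 first intron peaks tested (39.6%) at an adjusted p under 0.05, against 38.8% of all peaks. Of these, 3902 rose (22.6%, against 19.9% of all peaks) and 2939 fell (17.0%, against 18.9% of all peaks). The median log2 fold, rest over first, was 0.13 over first intron peaks and 0.02 over all peaks. Later intron peaks rose in 21.9% and fell in 14.9%, and core promoter peaks rose in 12.4% and fell in 32.2%. Whether these shares differ between classes was not tested. The split of calls depends on the scaling: 57.0% of called members were higher in the rest phase with quantile scaling, 59.2% with median-of-ratios scaling and 74.3% (5263 higher and 1819 lower, against 26.4% and 13.4% of all peaks) when libraries were scaled to their total reads in peaks. Total reads moved the median log2 fold of all peaks from 0.02 to 0.29 and that of first intron peaks from 0.13 to 0.41. The 45 members listed at 0 in any deposited mean did not enter the tests on reads.

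**Figure D2:**
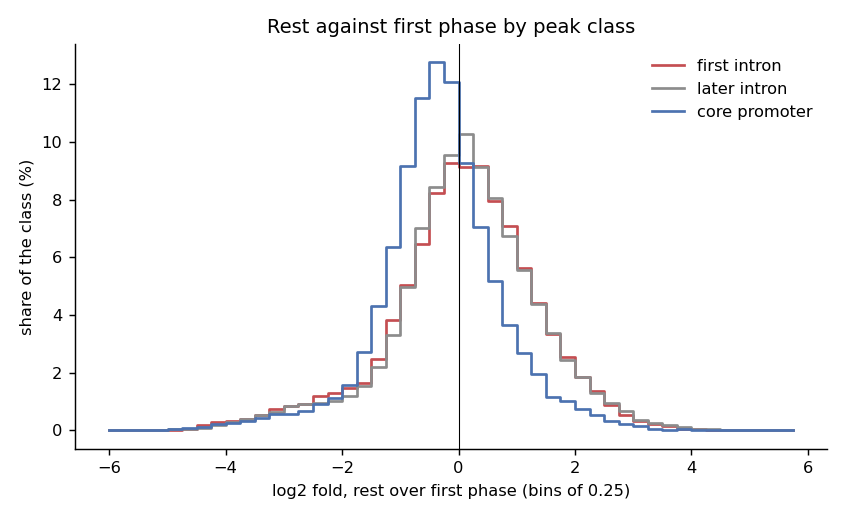
Distribution of the log2 fold of rest over first phase (x axis, bins of 0.25) as a share of each peak class (y axis, %). The curves of first and later intron peaks lie close together around medians of 0.13 and 0.14, and that of core promoter peaks lies lower, around -0.32.

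Called members covered a wide range of folds. The shares by size of fold, level and distance given here were not taken over all peaks, and say nothing particular to first introns. Members that rose had a median log2 fold of 1.50, and 939 of 3902 (24.1%) changed at least 4-fold. Members that fell had a median log2 fold of -1.70, and 1179 of 2939 (40.1%) changed at least 4-fold. Members at or above the median level of all peaks rose in 36.9% and fell in 16.3%, and those below it rose in 9.84% and fell in 17.7%. By distance, 21.8% of members within 10 kb of a start rose and 17.7% fell, 22.2% and 17.5% did so over 10 to 50 kb, and 26.7% and 13.3% beyond 50 kb. In the long Galnt2 transcript the lean was opposite, with 73 peaks that rose and 126 that fell of 447 tested. Without that transcript 3829 members rose and 2813 fell.

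The peaks named next are from the 8 called members with the largest fold in each direction, 1 per gene, at or above the median level of all peaks. The largest rise was at chr2:38248271-38248670 in Dennd1a, a regulator of Rab35 in endocytic traffic. Levels there were 3.22, 2.81, 3.54 and 2.32 in first-phase libraries A1, A2, B1 and B2, and 7.21, 7.53, 7.60 and 7.67 in the rest-phase libraries. The phases were far apart (log2 fold 4.63, SE 0.32, limma adjusted p = 5.21e-07), and the 4 second-phase libraries stayed at 7.19 to 7.40. These levels rest on 2 to 9 reads per first-phase library and 103 to 341 per rest-phase library.

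At Cadm1 (chr9:47589770-47590169) levels were 3.22, 3.85, 3.38 and 4.51 in the first and 8.36, 7.70, 7.96 and 7.90 in the rest phase, without overlap (log2 fold 4.21, SE 0.31, limma adjusted p = 6.92e-07). The peak in Arhgap24 (chr5:102576705-102577104), a GTPase-activating protein for Rac, rose from 4.51, 5.08, 4.64 and 4.89 to 9.23, 8.74, 8.57 and 8.50 (log2 fold 4.04, SE 0.23, limma adjusted p = 1.64e-07). It was the most open of the 7 rising peaks named here in every rest-phase library. In Apbb2 (chr5:66603725-66604124), an adaptor that binds the amyloid precursor protein, levels went from 4.07, 3.26, 3.68 and 3.92 to 8.22, 7.81, 7.97 and 8.01 (log2 fold 4.26, SE 0.24, limma adjusted p = 1.64e-07). Others were assigned to the activin receptor gene Acvr2a (4.09), the adhesion receptor gene Adgrg6 (4.06) and the calcium-sensing receptor gene Casr (4.01), all log2 folds. The peak assigned to Acvr2a lay in a transcript without a gene ID, 415 kb from the Acvr2a start. None of the 7 peaks named here overlapped between the phases, which their choice by largest fold makes likely. Of all peaks, 18.8% were higher and 18.9% lower in every rest-phase library than in every first-phase library.

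Among the peaks that fell, the largest change was at chr2:27487290-27487689 in Brd3, a reader of acetylated histones that also binds GATA1. Levels were 7.89, 7.91, 7.72 and 8.44 in the first and 1.58, 2.32, 3.53 and 2.97 in the rest phase (log2 fold -5.42, SE 0.43, limma adjusted p = 9.71e-07). In rest-phase libraries this peak held 2 to 10 reads. The peak in Sptb (chr12:76670551-76670950), the beta spectrin of red cells, went from 7.45, 7.41, 8.04 and 6.79 to 2.14, 1.12, 4.20 and 2.39 (log2 fold -4.95, SE 0.57, limma adjusted p = 1.51e-05). Gypc, which encodes glycophorin C of the red cell membrane, had a log2 fold of -4.76 (SE 0.37, limma adjusted p = 8.47e-07). A peak assigned to Zfpm1, the GATA1 partner FOG1, had -4.76 (SE 0.53, limma adjusted p = 1.09e-05) and lay in the long Galnt2 transcript, as did that assigned to Gse1 (-4.68).

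The other 3 of the 8 were Ccr9, a chemokine receptor of lymphocyte homing, Pim1, a kinase induced by cytokines, and Fam117a. At Ccr9 (chr9:123754381-123754780) levels were 7.95, 7.96, 8.48 and 7.45 in the first and 2.32, 2.54, 3.36 and 3.21 in the rest phase (log2 fold -5.12, SE 0.37, limma adjusted p = 6.22e-07). The log2 folds were -5.09 at Pim1 and -4.79 at Fam117a. All 8 stayed low in the second phase, at 1.58 to 4.01.

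**Figure D3:**
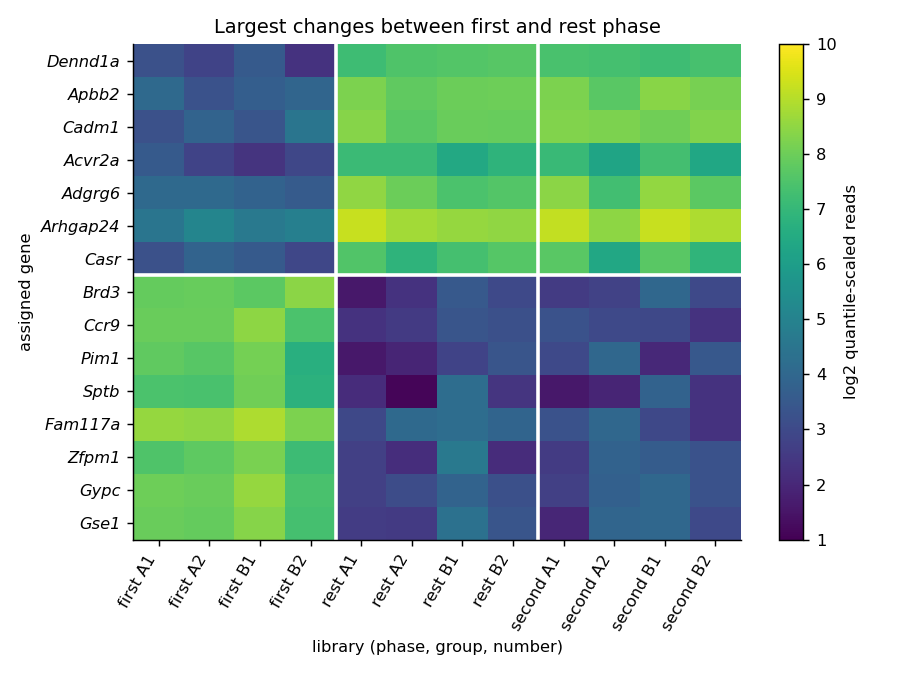
Levels (log2 quantile-scaled reads, colour) of 7 of the 8 called first intron peaks with the largest rise (top) and the 8 with the largest fall (bottom) between first and rest phase, 1 column per library. Peaks of the upper block run from 2.32 to 5.08 in the first phase and from 6.44 to 9.23 in the rest phase, and those of the lower block from 6.69 to 8.88 and from 1.12 to 4.65.

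Within a gene, the peaks of 1 first intron did not always change together. Counted by transcript, 1160 first introns that lie in the assigned gene held at least 2 called peaks. All called peaks rose in 413 of these introns and all fell in 255, while 492 (42.4%) held called peaks of both directions. No such share was taken for later introns or for other peaks, so the 42.4% says nothing particular to first introns. Peaks of 1 intron share a host and are not replicates. In Cadm1, 24 of 41 peaks rose and 0 fell, with log2 folds from -0.63 to 4.21 around a median of 1.26. The mean level of its 41 peaks was 3.69 to 3.82 in the first-phase libraries and 4.76 to 5.44 in the rest-phase libraries.

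Counted by gene, others among those with the most peaks that rose were Nav1, a microtubule-binding protein (13 of 19 peaks rose), Slc8a1 (12 of 30), Dab2, an adaptor of clathrin-mediated endocytosis (11 of 19), and the cAMP phosphodiesterase gene Pde4d (10 of 17), each with 0 that fell. Mctp1 had 12 of 26 that rose and 1 that fell, and Arhgap24 10 of 16 and 1. In Dab2 the mean level over the 19 peaks was 3.75, 4.19, 3.85 and 4.11 in the first and 5.81, 6.01, 4.82 and 5.24 in the rest phase. Both groups of the rest phase lay above the first phase, which the choice of the gene by its rising peaks makes likely. Group A lay above group B.

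Among the genes with the most peaks that fell were Cmip (12 of 29 peaks fell, 1 rose), Foxp1 (10 of 35, 4 rose), Ksr1, a scaffold of the MAP kinase cascade (10 of 18, 0 rose), Lipc, the hepatic lipase gene (10 of 14, 2 rose), Ripor2 (10 of 23, 1 rose) and Prex1, an exchange factor for Rac (9 of 14, 1 rose). In Cmip and Foxp1 most peaks did not pass the test, and the median log2 fold over all their peaks was -0.52 and -0.19. Mean levels over the 18 peaks of Ksr1 were 5.98, 5.77, 5.73 and 5.95 in the first and 4.60, 4.44, 4.75 and 4.56 in the rest phase. They did not overlap, which the choice of the gene by its falling peaks makes likely. Ptprj, a receptor tyrosine phosphatase, held 9 peaks that rose and 9 that fell among 25 peaks within 85.6 kb, with log2 folds from -3.67 to 2.24. Its mean level overlapped between the phases, with 5.15 to 5.46 in the first and 4.83 to 5.34 in the rest phase. Morrbid, a noncoding RNA known for regulating the life span of short-lived myeloid cells, held 9 peaks that rose and 8 that fell of 31.

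**Figure D4:**
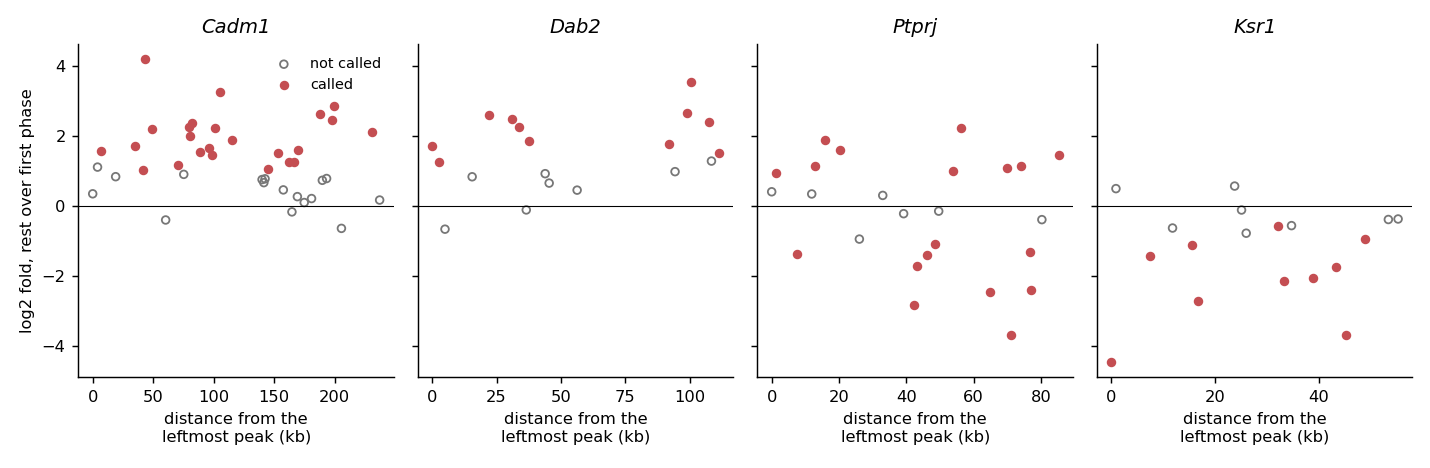
Log2 fold of rest over first phase (y axis) for each first intron peak of Cadm1, Dab2, Ptprj and Ksr1 against its distance from the leftmost peak of that intron (x axis, kb). Filled points were called at an adjusted p under 0.05. In Cadm1 and Dab2 all called peaks rose (24 and 11), in Ksr1 all 10 fell, and in Ptprj 9 rose and 9 fell.

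Gene lists were read through the members assigned to their genes. Counts are of peaks that rose or fell at a limma adjusted p under 0.05, over all 139557 peaks. They stand beside the 19.9% and 18.9% of all peaks and their median log2 fold of 0.02. Counts with total reads, here and in the lists that follow, stand beside 26.4% and 13.4% of all peaks. Several peaks share a gene, and the genes named are among the 3 of each list with the smallest p. That choice makes phases without overlap likely at the peaks named. With total reads in place of quantile scaling, the medians of the alternative activation (0.09), B cell (0.13), stem (0.34) and dendritic (0.12) lists turned positive, while the median of all peaks was 0.29. Median-of-ratios scaling turned those of the stem list (0.04) positive and of the interferon (-0.01), inflammatory (-0.01) and stromal (-0.03) lists negative. Among macrophage core genes 12 of 54 peaks rose and 10 fell (median log2 fold 0.20). Only 13 of the 54 lay in an intron of the assigned gene, and of those 5 rose and 1 fell. At Ctsb, the lysosomal protease cathepsin B, levels rose from 7.69, 7.77, 7.46 and 7.43 to 9.54, 9.33, 9.40 and 9.59 (log2 fold 2.02, SE 0.15, limma adjusted p = 8.33e-07). Mertk, the receptor by which macrophages take up dying cells, had 4.07, 3.85, 4.09 and 3.92 in the first and 6.38, 6.52, 7.02 and 6.86 in the rest phase (log2 fold 2.68, SE 0.28, limma adjusted p = 7.18e-06). A peak assigned to the lineage factor Runx1 rose by 2.49 (SE 0.23, limma adjusted p = 2.90e-06).

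Osteoclasts form from the same precursors under M-CSF and RANKL. Of the 153 first intron peaks of 23 osteoclast genes, 46 rose and 19 fell (median log2 fold 0.25), and 58 and 12 with total reads. At Tnfrsf11a, which encodes the RANKL receptor RANK, levels rose from 6.06, 5.70, 5.73 and 5.11 to 8.56, 8.47, 7.94 and 7.92 (log2 fold 2.69, SE 0.26, limma adjusted p = 3.89e-06). Gab2, an adaptor downstream of RANK, rose by 3.11 (SE 0.27, limma adjusted p = 2.05e-06) and Itgav, the alpha v integrin subunit, by 2.83 (SE 0.28, limma adjusted p = 4.12e-06).

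Fatty acid and lipid genes had 22 of 69 peaks that rose and 9 that fell (median log2 fold 0.31). Cd36 encodes the scavenger receptor that takes up fatty acids and oxidized lipoprotein. Its peak at chr5:17879861-17880260 had 4.71, 5.08, 5.82 and 5.90 in the first and 9.27, 9.25, 8.49 and 8.52 in the rest phase, without overlap (log2 fold 3.42, SE 0.28, limma adjusted p = 1.44e-06). Abca1, the cholesterol efflux pump, rose by 3.07 (SE 0.25, limma adjusted p = 1.25e-06). Srebf2, which drives cholesterol synthesis, fell by 3.29 on the log2 scale (SE 0.30, limma adjusted p = 2.69e-06), from 6.86 to 7.24 in the first-phase libraries to 3.36 to 4.04 in the rest-phase libraries.

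The study is named for Acsl1, an enzyme that activates long-chain fatty acids. It had 2 first intron peaks, and both fell. The peak at chr8:46477944-46478343, 6.76 kb from the start, held 6.40, 6.18, 5.58 and 6.25 in first-phase libraries A1, A2, B1 and B2, then 3.18, 2.70, 3.87 and 4.45 in those of the rest phase, and 3.26, 4.86, 3.63 and 4.86 in those of the second (rest over first -2.46, SE 0.42, limma adjusted p = 3.43e-04). That at chr8:46484943-46485342 held 6.55, 6.65, 6.22 and 7.10, then 3.00, 3.36, 4.20 and 4.36, then 3.36, 5.70, 2.32 and 5.74 (rest over first -2.87, SE 0.38, limma adjusted p = 4.85e-05). In both peaks the rest phase lay wholly below the first, and second-phase libraries A2 and B2 lay above A1 and B1. Within the rest phase group A lay below group B in both peaks, but neither passed the test (limma adjusted p = 0.100 and 0.110), nor did they in the authors' deposited table (adjusted p = 0.548 and 0.901).

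Glycolysis and glucose uptake genes had 2 peaks that rose and 12 that fell of 29 (median log2 fold -0.77), and 4 and 6 with total reads (-0.43). Hk1, a hexokinase, had levels of 6.72, 7.13, 7.44 and 6.54 in the first and 3.98, 3.50, 4.35 and 4.09 in the rest phase (log2 fold -2.97, SE 0.32, limma adjusted p = 9.74e-06). Pfkfb3, which makes the activator of phosphofructokinase, fell by 2.07 (SE 0.30, limma adjusted p = 1.02e-04). Hif1a, the factor of the hypoxia response, went the other way and rose by 2.38 (SE 0.28, limma adjusted p = 1.86e-05), at a peak in a transcript without a gene ID.

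Chromatin enzymes known from trained immunity had 21 of 117 peaks that rose and 20 that fell (median log2 fold 0.19), and 31 and 11 with total reads. A peak of the H3K79 methyltransferase gene Dot1l rose by 3.12 (SE 0.25, limma adjusted p = 1.22e-06). A peak of Smarca4, the ATPase of the BAF remodelling complex, had 7.53, 7.71, 8.03 and 5.90 in the first and 2.70, 2.32, 3.87 and 3.21 in the rest phase (log2 fold -4.14, SE 0.50, limma adjusted p = 2.07e-05).

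Genes of inflammatory activation had 14 of 46 peaks that rose and 10 that fell (median log2 fold 0.02), and 16 and 6 with total reads. A peak assigned to the monocyte chemokine gene Ccl2 rose from 6.40, 6.80, 6.66 and 6.96 to 9.44, 9.42, 8.99 and 8.90 (log2 fold 2.54, SE 0.19, limma adjusted p = 8.19e-07), although it lay 28.2 kb from Ccl2 in a transcript without a gene ID. Irak3, an inhibitor of Toll-like receptor signalling, fell by 3.21 (SE 0.36, limma adjusted p = 1.33e-05). Interferon response genes had 2 of 11 peaks that rose and 1 that fell (median log2 fold 0.07), and 3 and 0 with total reads. Ciita, the master regulator of MHC class II, rose by 1.93 (SE 0.32, limma adjusted p = 2.47e-04). Among genes of alternative activation, 5 of 28 peaks rose and 8 fell (median log2 fold -0.24; 6 and 6 with total reads), with Pparg, a lipid-sensing nuclear receptor, rising by 1.92 (SE 0.27, limma adjusted p = 6.83e-05) and Pdcd1lg2, which encodes PD-L2, falling by 2.48 (SE 0.36, limma adjusted p = 9.23e-05).

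The T and NK, erythroid, neutrophil and B cell lists stand beside the marker sums given above. Core promoter peaks of stem and progenitor markers summed to 2615 to 3359 in the first and 1687 to 2099 in the rest phase. Those of dendritic and mast cell markers summed to 2524 to 3127 and 1744 to 2161, and of stromal markers to 1566 to 1805 and 1101 to 1760. As a class, core promoter peaks fell in 32.2% and rose in 12.4% between these phases, and the sums were not set against that lean. The part of other cell types in the counts of the other lists was not tested. T and NK cell genes had 1 of 29 peaks that rose and 16 that fell (median log2 fold -1.21), and 4 and 9 with total reads (-0.80). At Cd247, the zeta chain of the T cell receptor complex, levels were 5.06, 5.60, 5.63 and 4.99 in the first and 2.60, 3.22, 2.82 and 2.39 in the rest phase, without overlap (log2 fold -2.55, SE 0.37, limma adjusted p = 9.33e-05). Erythroid and megakaryocyte genes had 2 of 16 that rose and 7 that fell, all in Ank1 and Sptb, the only 2 of the 20 listed genes with a member. All 3 neutrophil peaks fell, from -0.94 at Padi4 to -4.35 at a peak assigned to Fcnb. B cell genes had 8 of 47 that rose and 13 that fell (median log2 fold -0.18), where total reads turned the lean to 13 and 11. Among them Bach2, a transcriptional repressor that acts in B cells, had 7.01 to 7.68 in the first and 3.12 to 3.38 in the rest phase (log2 fold -4.08, SE 0.30, limma adjusted p = 6.86e-07). Dendritic and mast cell genes had 2 of 13 that rose and 4 that fell, and stromal, osteoblast and fat cell genes 2 of 13 and 3. Stem and progenitor genes had 15 of 63 that rose and 5 that fell (median log2 fold -0.07), and 15 and 3 with total reads. Among them Mecom rose by 3.06 (SE 0.25, limma adjusted p = 1.18e-06), whereas a peak assigned to Kit fell by 3.31 (SE 0.33, limma adjusted p = 4.59e-06).

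The 8 first intron peaks with the highest mean level over all phases were open in all 12 libraries, which that choice makes likely. That of Arhgap25, a GTPase-activating protein of leukocytes, held 8.84 to 9.42 in the first phase, 9.74 to 10.25 in the rest phase and 9.67 to 10.28 in the second (rest over first 0.94, SE 0.16, limma adjusted p = 3.89e-04). A peak assigned to Dtnbp1 followed, and then Dgkz, Ube2v1, Ccdc12, Osbpl3, Ankrd33b and Ston2. Of these 8, Ccdc12 did not pass the test (log2 fold 0.27, SE 0.24, limma adjusted p = 0.408), and the others rose by 0.56 to 1.51.

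Groups A and B within a phase address whether cells of diabetic mice differ in open chromatin. In the first phase the authors' deposited table calls 0 of 17317 first intron peaks (0% of all peaks) at an adjusted p under 0.05 and 86 (0.497%, against 0.58% of all peaks) at an unadjusted p under 0.05. Of the 17272 members tested by limma, 0 were called as well, with 578 (3.35%, against 3.74% of all peaks) at an unadjusted p under 0.05. In the second phase limma called 0 members and gave 141 (0.816%, against 0.771% of all peaks) at an unadjusted p under 0.05, while the authors' deposited table calls 4731 (27.3%, against 26.7% of all peaks), all higher in A (26.7% of all peaks) and 0 in B (0.00429% of all peaks). First intron peaks had a median log2 fold of 0.85 in the authors' deposited table, and all peaks 0.86. Reads in peaks were 17980427 and 10288843 in the libraries of A and 3827344 and 6067273 in those of B, and the part of depth in these calls was not tested. That table lists 4760 members at an adjusted p of 1, and of the other 12557 it calls 37.7%, against 36.6% over all peaks.

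In the rest phase the authors' deposited table calls 7724 members (44.6%, against 39.8% of all peaks), 7717 higher in A (39.7% of all peaks) and 7 higher in B (0.0929% of all peaks). The median deposited log2 fold of first intron peaks was 1.12 in the authors' deposited table. Depth differed too, with 18602644 and 15990425 reads in the libraries of A and 5454821 and 8770052 in those of B, and its part in the deposited calls was not tested. With quantile scaling limma called 1945 members (11.3%, against 12% of all peaks). Of these, 1327 were higher in A (7.68%, against 6.48% of all peaks) and 618 higher in B (3.58%, against 5.56% of all peaks). The median log2 fold was 0.08 over first intron peaks and -0.02 over all peaks. With the authors' scaling limma called 10673 members (61.8%, against 55.3% of all peaks), with a median log2 fold of 1.31 over all peaks and 1.40 over first intron peaks. Leaving out any 1 of the 4 rest-phase libraries (A1, A2, B1 or B2) keeps 1 library in its group. Such a fit cannot decide whether these calls hold.

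Of the members with the largest deposited fold, Filip1l (chr16:57422078-57422477) had levels of 7.83 and 8.14 in rest-phase libraries A1 and A2 and 5.51 and 5.35 in B1 and B2, and 6.04 to 6.55 in the first phase. The log2 fold was 3.21 in the authors' deposited table and 2.47 by limma (adjusted p = 6.66e-04) with quantile scaling. Ppm1l, a protein phosphatase gene, had 7.32 and 6.97 in A against 3.70 and 4.52 in B (3.36 in the authors' deposited table, adjusted p = 5.31e-06, and 3.11 by limma, adjusted p = 0.0017). A peak of Cd36 at chr5:17843267-17843666 had 6.97 and 6.37 in A against 2.22 and 4.67 in B (2.97 in the authors' deposited table, 3.42 by limma, adjusted p = 0.0168), while the Cd36 peak above differed by 0.64 (limma adjusted p = 0.00388). Pid1, Inpp5a, a peak assigned to Dusp6, a peak assigned to Acvr2a and Mctp1 completed the 8, with 3.02 to 3.21 in the authors' deposited table and limma adjusted p from 0.00105 to 0.00357. The peak higher in B that met the rule, assigned to Cnrip1 and lying in Plek, had 3.64 and 4.24 in A against 7.22 and 7.48 in B (-1.77 in the authors' deposited table, and -3.47 by limma, adjusted p = 8.45e-04).

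In the second phase all 8 peaks with the largest deposited folds were higher in A, with 2.07 to 2.24 in the authors' deposited table. They were Chn2, Trak1, Abtb2, Xylt1, Ctnnbl1, Gcnt1 and, in the long Galnt2 transcript, peaks assigned to Rab4a and Zfp469. With quantile scaling Chn2, a GTPase-activating protein for Rac, had 6.04 and 5.78 in second-phase libraries A1 and A2 and 4.80 and 4.09 in B1 and B2. The groups did not overlap there, and limma gave a log2 fold of 1.52 with an adjusted p of 1.

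The response to IFN-γ and LPS was not called at any first intron peak. limma gave 0 of 17272 at an adjusted p under 0.05 (0% of all peaks, smallest adjusted p 0.422) and 1880 (10.9%, against 11.4% of all peaks) at an unadjusted p under 0.05, of which 1283 were higher in the second phase. Leaving out any 1 library also gave 0. All 4 second-phase libraries lay above all 4 rest-phase libraries at 442 members (2.56%, against 2.26% of all peaks) and below them at 396 (2.29%, against 3.64% of all peaks). Levels at members of interferon and LPS response genes differed within each second-phase group. Usp18, a protease that removes the ubiquitin-like ISG15, had 4.13 and 7.34 in A1 and A2 and 3.82 and 7.58 in B1 and B2, against 2.82 to 4.09 in the rest phase (log2 fold 2.16, SE 0.80, limma adjusted p = 0.422). Libraries A2 and B2 were high and A1 and B1 lay near the rest phase.

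The same order of libraries stood at other members, chosen here as the 3 genes with the smallest p of each list. Ciita at chr16:10495970-10496369 had 7.39, 8.63, 7.57 and 8.70 in second-phase libraries A1, A2, B1 and B2 and 6.96 to 7.27 in the rest phase. Gbp9, a guanylate-binding protein gene whose peak lies in Gbp8, had 3.26, 5.23, 3.99 and 6.07, against 3.00 to 3.53. The median log2 fold of second over rest was 1.06 over the 11 peaks of 6 interferon genes and 0.44 over the 46 peaks of inflammatory genes, with -0.01 over all first intron peaks and -0.08 over all peaks. Fpr2, a formyl peptide receptor, had 7.61, 8.95, 7.89 and 8.88, and a peak assigned to Hif1a 3.75, 6.87, 4.33 and 6.22.

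Among macrophage and osteoclast genes, Msr1, a scavenger receptor, had 5.61, 7.04, 5.78 and 7.02, Src, a kinase of the osteoclast cytoskeleton, 7.31, 9.16, 7.12 and 9.02, and Cd44, the hyaluronan receptor, 7.15, 8.43, 6.62 and 8.41. Lpl, the lipoprotein lipase gene, had 4.56, 7.15, 4.65 and 6.84. Hdac9, a class IIa histone deacetylase gene, had 4.95, 6.77, 4.33 and 7.35. In each of these 5, A2 and B2 lay above A1 and B1. Another pattern stood at a peak assigned to Ccl2 (chr11:82016408-82016807), with 8.14, 8.03, 8.34 and 8.19, all above the 6.77 to 7.84 of the rest phase. Kdm1a, which encodes the demethylase LSD1, had 7.06, 7.62, 8.03 and 8.03, and overlapped the 5.53 to 7.39 of the rest phase through A1. Irak3, which had fallen between first and rest phase, had 2.70, 7.33, 2.95 and 7.46, against 2.14 to 2.82 in the rest phase.

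**Figure D5:**
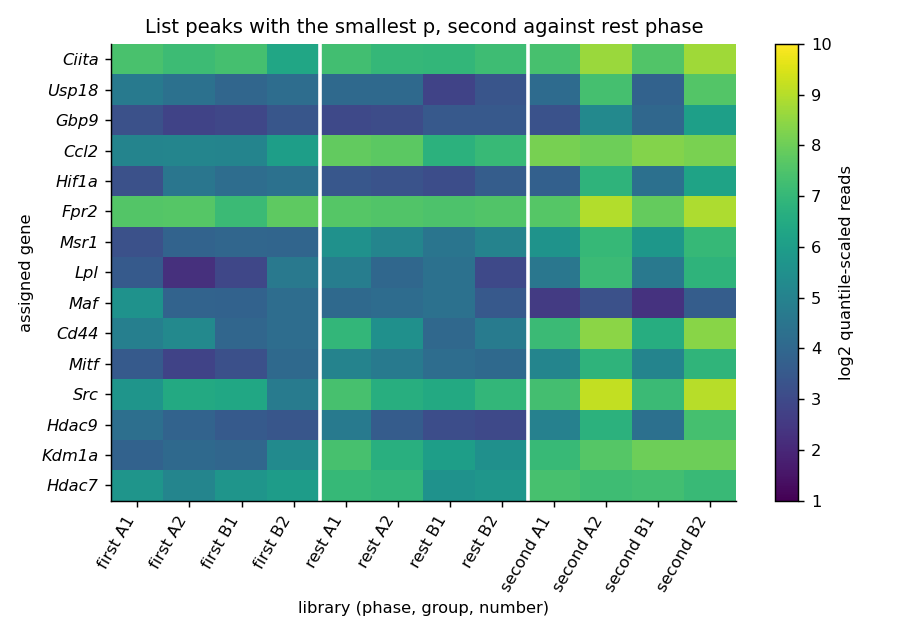
Levels (log2 quantile-scaled reads, colour) of first intron peaks of 5 gene lists, the 3 genes of each list with the smallest p for second against rest phase, 1 column per library. At Usp18 second-phase libraries A2 and B2 stand at 7.34 and 7.58 and A1 and B1 at 4.13 and 3.82, while Ccl2 lies at 8.03 to 8.34 in all 4.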

How the data were processed

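ATAC-seq was done on macrophages grown from mouse marrow, in 3 phases with 2 groups of 2 libraries each. Per the submitters' processing notes the build was mm10 and the tools, with no role given, were HOMER 5.1, DESeq2, DiffBind 3.14.0, MACS2, bedtools 2.28.0, Picard 3.2.0, deepTools 3.2.1 and Bowtie2 2.5.4. Each deposited table lists, per peak, the authors' log2 mean of each group, a log2 fold and a p-value with its adjusted p-value. Distances to starts are deposited too, in bp. The means are unlabelled, and libraries were numbered 1 and 2 within a group by what a read was worth, not by label.

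Reads per library were recovered from the authors' log2 means, which are sums of whole multiples of 1 scaled read per library. Every mean above 0 gave exactly 1 pair of read numbers (largest relative miss 3.46e-09), and 442 peaks listed at 0 were left out, 45 of them members. For levels and their medians, reads were quantile scaled over the 12 libraries, a pseudocount of 1 was added and log2 was taken. For limma the same steps were run over the libraries of each comparison alone. First-phase libraries A1 and A2 were averaged for rest against first. Peaks were tested with limma 3.58.1 in R 4.3.3, with Benjamini-Hochberg adjustment over all 139557 peaks and an adjusted p threshold of 0.05. limma was also tested on simulated data. Shares and medians were compared by two-sided exact permutation tests (scipy 1.17.1). Reads in peaks ranged from 3827344 to 18602644 per library.

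Peaks were named by rule: the 8 called members with the largest fold per direction (1 per gene, at or above the median level), the 3 genes with the smallest p of each of 15 gene lists, the 8 genes with the most members, the 8 most open members and all of Acsl1. A few genes that these rules name are not reported here. Members and lists were chosen with earlier results of these data known. Alternatives were other scalings, a pseudocount of 8, at least 10 reads in 2 libraries, stricter deposited calls and each library left out. Counts without the long Galnt2 transcript, for own-host peaks only, by level and outside core promoters were added after seeing the data.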

Additional observations from a re-analysis of the deposited data

Results flagged for a closer look

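In 8 of 242 sets of 4 libraries, 1 library of a phase stood apart from the other 3 by Dixon's test, of which chance gives about 1 in 20. In the rest phase, library B2 was high at a peak of Ank1 (level 7.20, the others 6.95 to 6.97) and low at Irgm2 (4.20, the others 4.74 to 4.82), and library B1 was high at Pax5 (3.70, the others 2.70). In the second phase, library A1 was high at the peak assigned to Dtnbp1 (10.34, the others 10.00 to 10.05). Library B1 was low at Pfkfb3 (3.45, the others 5.52 to 5.68) and at Pparg (6.02, the others 7.37 to 7.59). Library B2 was low at the peak assigned to Kit (2.32, the others 2.91 to 3.00) and at Smarca4 (1.32, the others 2.77 to 3.00).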

How the results depend on the processing

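Rest-phase calls between groups A and B moved most. The 1945 called members became 10673 (61.8%, against 55.3% of all peaks) with the authors' scaling, 10601 higher in A and 72 in B (54.9% and 0.461% of all peaks). Total reads gave 3760 (21.8%, against 21.4% of all peaks), 2761 higher in A and 999 in B (13.1% and 8.29% of all peaks). A fit without 1 rest-phase library keeps 1 in its group and cannot decide whether the calls hold. Where no share of all peaks stands beside a count below, the count says nothing particular to first introns. An adjusted p under 0.01 left 3472 deposited rest-phase calls (3471 higher in A, 1 in B) and 0 in the second phase. Folds centred on the median of all peaks and past 1 left 967 in the rest phase (960 higher in A) and 67 in the second, and peaks at or above the median level left 1 higher in B in the rest phase. Between rest and first phase, 4333 members were called among peaks at or above the median level (1328 higher in the first phase). Total reads gave 1819 higher in the first phase (10.5%, against 13.4% of all peaks), and leaving out 1 sample gave 5504 to 7141 calls. The change in median level turned from negative to 0.42 (rest over first) and 0.26 (second over rest) when taken against core promoter peaks in place of later introns. The cause was not tested. Of 54 named peaks, 2 lost their call with total reads, and 1 each with median-of-ratios scaling, without first B replicate 2 and without rest A replicate 1. No paired analysis was possible because the columns carry no replicate numbers. The median member held 9 to 18 reads per first-phase library, and what this depth leaves undetected was not measured.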
